A study of Rattus norvegicus with 15 samples.

Results

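The genes of the extracellular matrix were described in the gastrocnemius muscle of male Wistar rats that received a low-protein diet after weaning. The set holds every probe set whose only gene symbol names a collagen, a laminin chain, a matrix metalloproteinase (Mmp), an ADAMTS or ADAMTS-like protein, a tissue inhibitor of metalloproteinases (Timp) or an integrin, together with Fn1, Fbn1, Dcn, Lum, Ogn, Bgn, Sparc, Postn, Hspg2, Nid1, Nid2 and Lox. It comprised 183 probe sets of 126 genes, of 31042 probe sets and 14217 genes on the array. Basement membrane genes accounted for 29 probe sets of 20 genes, interstitial matrix for 56 of 37, other collagens for 6 of 6, proteases and their inhibitors for 52 of 37, and integrins for 40 of 26. The last group was chosen by the start of the symbol, so it also took in 4 genes that are not integrin subunits, among them Itgb1bp1 and Itgb1bp2, which encode proteins that bind the integrin beta 1 tail.

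Total RNA of each rat was hybridized to 1 GeneChip Rat Genome 230 2.0 array after 16 h of fasting. Rats bought at 3.5 weeks of age received a 15% casein diet (CN, 4 arrays) or a diet of equal calories with 8% casein (LP, 4 arrays) for 4 weeks. The rebound feeding rats, CN-R (3 arrays, replicates 1, 2 and 4) and LP-R (4 arrays), began in the same way and were sampled on day 84. The sources differ on the 8 further weeks: in the publication both rebound groups ate the control diet, and in the sample labels each group stayed on its earlier diet. The former is used here. CN-R replicate 4 is a control by its title and description and a restricted rat by its treatment field, and it was kept in CN-R. Rats were chosen for body weights near their group's average, per the study's methods. These speak of 4 individuals, 1 from each group, whereas the labels give 3 or 4 replicates a group. If all were so chosen, the spread between arrays may be smaller than that of all rats fed.

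Skeletal muscle fibers are wrapped in a basement membrane, a sheet in which a laminin network at the cell surface is joined by nidogens and perlecan to a network of type IV collagen. Capillaries within the muscle have a basement membrane of their own. Outside it lies the interstitial matrix of endomysium, perimysium and tendon, built of fibrils of collagens I, III and V, of collagen VI microfibrils, fibronectin, fibrillin and small leucine-rich proteoglycans, and made mostly by fibroblasts. Metalloproteinases and ADAMTS proteases cut these proteins, Timps inhibit the proteases, and integrins bind cells to the matrix.

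The signal of a probe set is a log2 value made by FARMS, a factor model that leaves a probe set nearly flat where its probes share little variation. CN and LP arrays were summarized in 1 run and CN-R and LP-R arrays in another, so levels were not compared between the ages. A probe set is called varying here when its SD over the arrays of its own comparison exceeded 0.01. This held for 71 of the 183 matrix probe sets in CN and LP and for 42 in CN-R and LP-R, against 3974 and 3100 of all 31042. A nearly constant probe set gives no information on a change. Ckm and Acta1, which define muscle fibers, were among the highest signals, at 14.03 and 14.07 in CN. Pearson's r between arrays of a set was 0.997 to 0.999 over probe sets, and probe sets are not independent of each other. Of the 126 genes, 93 matched a RefSeq promoter window by gene identifier.

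The upstream sequences of 4 genes are shown as examples from the groups that the results turn on. They are Col4a1 and Lamb1 for the basement membrane, and Col1a2 and Postn for the interstitial matrix. Each run is the 250 bases before the RefSeq start site of the assembly GRCr8, read 5′ to 3′ along the gene, at chr16:84885347-84885596 (plus strand) for Col4a1, chr6:53562846-53563095 (plus strand) for Lamb1, chr4:33518307-33518556 (plus strand) for Col1a2 and chr2:140677811-140678060 (plus strand) for Postn. Capitals mark matches, on either strand, to the letters of the TATA box (TATAAA), of the box named after its letters CCAAT and of the GC box (GGGCGG), none of which overlapped.
Col4a1: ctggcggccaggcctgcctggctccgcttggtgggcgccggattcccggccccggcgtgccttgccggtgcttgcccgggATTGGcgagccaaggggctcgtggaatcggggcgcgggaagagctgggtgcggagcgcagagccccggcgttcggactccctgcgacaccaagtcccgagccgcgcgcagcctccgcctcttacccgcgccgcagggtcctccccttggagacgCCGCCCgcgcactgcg
Lamb1: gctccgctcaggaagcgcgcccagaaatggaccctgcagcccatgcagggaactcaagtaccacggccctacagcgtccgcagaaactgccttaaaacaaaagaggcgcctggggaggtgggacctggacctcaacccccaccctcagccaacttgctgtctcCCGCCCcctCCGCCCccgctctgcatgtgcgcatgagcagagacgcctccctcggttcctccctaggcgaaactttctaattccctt
Col1a2: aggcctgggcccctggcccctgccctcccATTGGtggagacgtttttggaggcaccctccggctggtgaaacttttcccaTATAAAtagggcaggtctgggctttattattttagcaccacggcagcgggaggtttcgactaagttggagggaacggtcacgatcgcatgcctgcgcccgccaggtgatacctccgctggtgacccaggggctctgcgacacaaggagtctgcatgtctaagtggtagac
Postn: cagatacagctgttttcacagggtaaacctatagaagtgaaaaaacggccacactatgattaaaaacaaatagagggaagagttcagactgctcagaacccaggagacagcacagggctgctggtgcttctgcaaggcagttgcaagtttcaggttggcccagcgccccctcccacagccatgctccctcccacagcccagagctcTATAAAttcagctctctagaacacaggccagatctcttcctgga
Col4a1 and Col4a2, the genes of the chains that build most type IV collagen, start 77 bases apart on opposite strands, so the 300-base windows of both genes share 176 bases (chr16:84885471-84885646). The bases shown for Col4a1 had a GC content of 75.2%, and those of Lamb1, Col1a2 and Postn 62.0%, 58.4% and 50.8%, against a median of 51.2% over 33469 windows of all genes. TATAAA was found in the windows of Col1a2 and Postn, CCAAT in those of Col4a1 and Col1a2, and GGGCGG in those of Col4a1 and Lamb1. Over all windows these letters stood in 12.9%, 34.0% and 30.5%. These matches are letters in a window and were not tested as binding sites.

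After 4 weeks of feeding, 9 matrix probe sets were called higher and 7 lower in LP than in CN by rank products. The threshold was 0.05 for the pfp, the share of false calls that permutations predict at that rank. The calls higher were mostly of basement membrane (Lamb1, Lama4, Lamc1, Col4a1 by 2 probe sets, Nid2 and Col15a1), with Adamts5 and 1 probe set of Sparc. The calls lower were Postn, Fn1, Lox, Col1a1, Col1a2, 1 probe set of Ogn and Mmp14, so 6 of the 7 were of the interstitial matrix. Lama4, Lamc1, Col15a1 and Mmp14 each have another probe set. It was nearly constant in CN and LP and so gives no information on a change. Over all 31042 probe sets, 1.67% were called higher and 1.6% lower, and since the calls lay among varying probe sets, the shares to set beside the 71 varying matrix probe sets were 13.1% and 12.5%. The share of matrix probe sets called was therefore near the background. By compartment, 7 of 11 varying basement membrane probe sets were called higher and 0 lower, and of 35 varying interstitial probe sets 1 was called higher and 6 lower. Whether these shares differ from the background was not tested.

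limma called 0.0% of all probe sets at an adjusted p up to 0.05 in LP, with 2342 at an unadjusted p below 0.05. Of these 18 were matrix probe sets, and their smallest adjusted p by limma was 0.525. When rank products were run on the 3974 varying probe sets alone, 11 were called higher and 21 lower in all, and none of them was a matrix probe set. The calls below are therefore made against the many nearly constant probe sets. The values of each array are given so that a call can be read against the spread between rats. In whole muscle, fewer cells of a type and less RNA in each cell cannot be told apart.

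At the level of genes, with the probe set of highest mean signal for each, all 10 varying basement membrane genes had a higher mean in LP than in CN, with a median difference of 0.12 on the log2 scale. Of 26 varying interstitial genes, 11 had a higher and 15 a lower mean, with a median difference of −0.03. This median turned to 0.04 without CN replicate 2. Col1a1, Lox, Sparc and Ogn entered by a probe set that was not called. Ogn thus counted as higher and Sparc as lower, opposite to their calls. Of 2423 varying genes in all, 1531 had a higher and 892 a lower mean, with a median difference of 0.03.

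**Figure D1:**
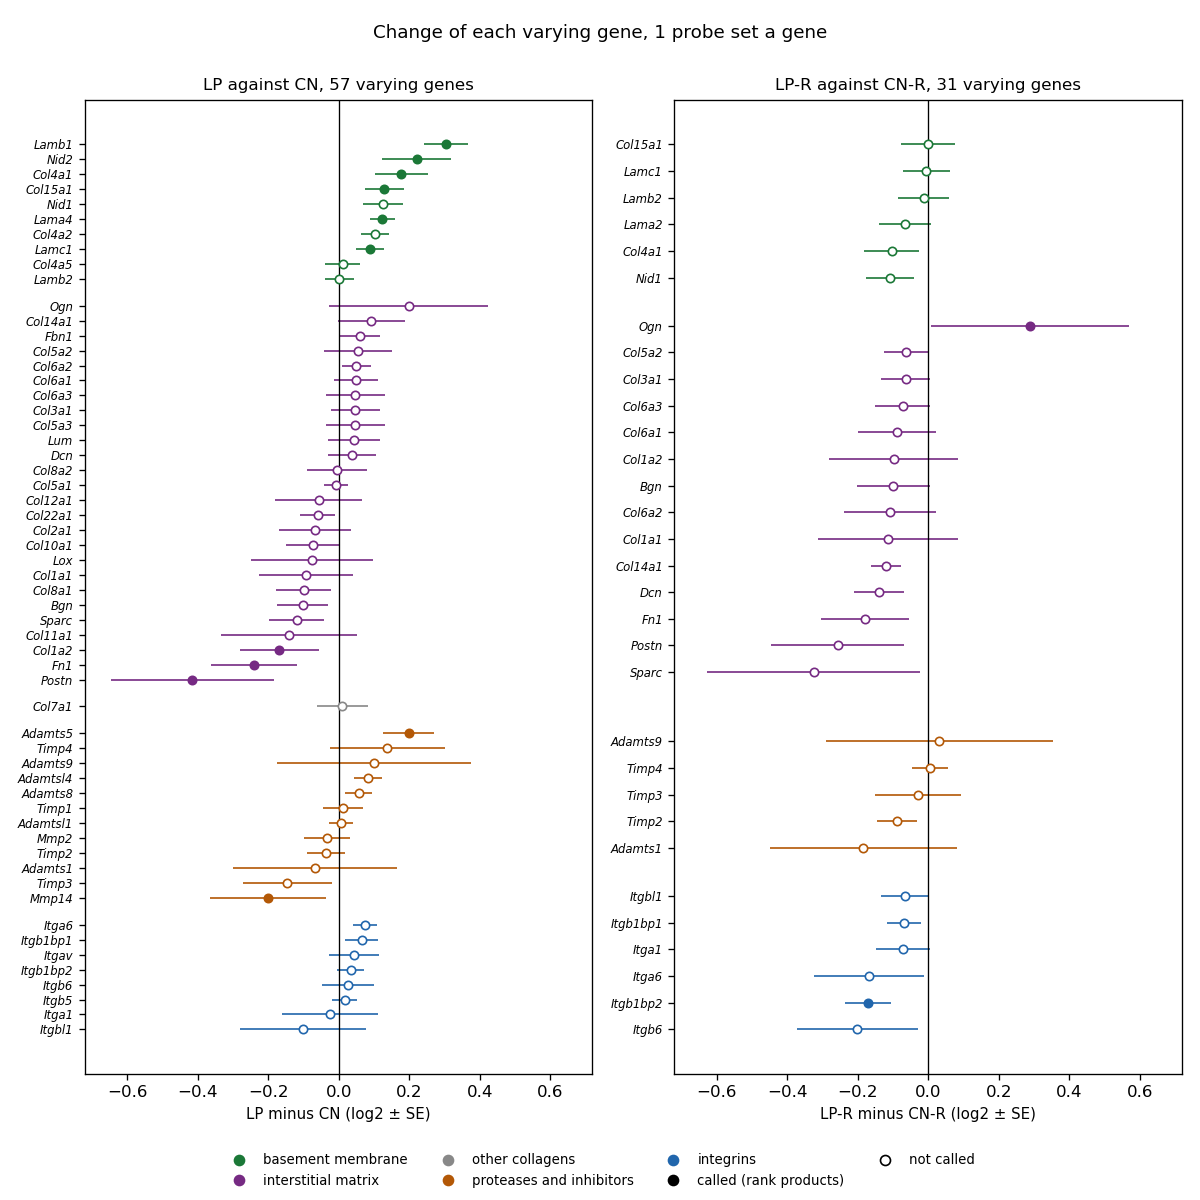
Difference of mean log2 signal between restricted and control rats (x axis, with SE) for each varying matrix gene, by 1 probe set a gene, for LP against CN (left, 57 genes) and LP-R against CN-R (right, 31 genes). Filled points were called by rank products. On the left, Col1a1, Lox, Sparc and Ogn are shown by a probe set that was not called, although another one of each was. On the left all 10 basement membrane genes lie at or above 0 and the interstitial genes fall on both sides. On the right 28 of the 31 genes lie below 0.

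Lamb1, a laminin beta chain, showed the largest difference of the compartment in LP. The log2 signal of Lamb1 in CN replicates 1 to 4 was 9.10, 9.38, 9.20 and 9.29, and in LP replicates 1 to 4 it was 9.60, 9.50, 9.54 and 9.54. Every LP rat lay above every CN rat. The difference was 0.30 (SE 0.06), a 1.24-fold higher signal, with a pfp of 0.00286 and an exact two-sided permutation p of 0.0286, the smallest that 4 against 4 arrays allow. The adjusted p by limma was 0.525. The call was kept without each of the 8 arrays, at differences of 0.26 to 0.35.

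Lama4, the laminin alpha chain of the endothelial basement membrane, had log2 signals of 8.46, 8.59, 8.47 and 8.47 in CN and of 8.68, 8.61, 8.60 and 8.61 in LP. Lamc1, the gamma chain that most laminins share, had signals of 9.94, 10.06, 10.06 and 10.08 in CN and of 10.08, 10.09, 10.13 and 10.18 in LP. The CN and LP rats did not overlap for either chain, but the gap was narrow, with CN replicate 2 close to LP for Lama4 and CN replicate 4 close to LP for Lamc1. The differences were 0.12 (SE 0.04, pfp 0.0323) and 0.09 (SE 0.04, pfp 0.0489), each with an exact permutation p of 0.0286. Neither call survived the loss of a single array, whichever of the 8 it was, and the difference then was 0.11 to 0.15 for Lama4 and 0.06 to 0.10 for Lamc1. Lamb2, another laminin beta chain, differed by 0.0021 (SE 0.04). Lama2, the alpha chain of the fiber's own basement membrane, was nearly constant at 9.01 in both groups.

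The 2 probe sets of Col4a1 gave the same picture. The probe set 1373245_at had log2 signals of 9.68, 9.87, 9.80 and 9.84 in CN and of 9.96, 9.91, 9.99 and 9.96 in LP, with no overlap. The probe set 1372439_at had 9.75, 10.06, 9.97 and 9.99 in CN and 10.15, 10.03, 10.18 and 10.12 in LP, where CN replicate 2 lay above LP replicate 2. The differences were 0.16 (SE 0.05, pfp 0.0224, exact permutation p = 0.0286) and 0.18 (SE 0.07, pfp 0.0225, exact permutation p = 0.0571). Without CN replicate 1, the lowest array, both calls were lost, at 0.12 and 0.11. The first was also lost without LP replicate 1, LP replicate 3 or CN replicate 3, and the second without any of these or LP replicate 4 (ranges 0.12 to 0.18 and 0.11 to 0.22).

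Col4a2, which starts beside Col4a1 on the other strand as printed above, had log2 signals of 9.30, 9.44, 9.33 and 9.42 in CN and of 9.48, 9.43, 9.52 and 9.47 in LP. CN replicate 2 lay above LP replicate 2, and the difference of 0.10 (SE 0.04) had a pfp of 0.0534 and was not called. Col4a5 differed by 0.01 (SE 0.05), and the other measured type IV collagen genes, Col4a4 and Col4a6, were nearly constant.

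The nidogens link the laminin and collagen networks. Nid2 had log2 signals of 8.34, 8.59, 8.29 and 8.22 in CN and of 8.71, 8.65, 8.50 and 8.47 in LP, with CN replicate 2 inside the LP range. The difference of 0.22 (SE 0.10) was called at a pfp of 0.017, and the call was lost without LP replicate 1, LP replicate 2, CN replicate 3 or CN replicate 4 (0.17 to 0.30 over the 8 arrays). Nid1 had 10.58, 10.82, 10.63 and 10.68 in CN and 10.87, 10.74, 10.79 and 10.81 in LP, and its difference of 0.13 (SE 0.06, pfp 0.0654) was not called. Hspg2, which encodes perlecan, was nearly constant at 8.45.

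Col15a1, a collagen at the outer face of basement membranes, had log2 signals of 9.61, 9.80, 9.70 and 9.73 in CN and of 9.93, 9.81, 9.87 and 9.75 in LP. The highest CN rat lay above the lowest LP rat. Its difference of 0.13 (SE 0.06, pfp 0.0401) was called with all arrays and without LP replicate 4, and with none of the other 7 left out (0.10 to 0.16). Col18a1 was nearly constant in both of its probe sets.

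In all, 4 of the 11 varying basement membrane probe sets had LP rats wholly above CN rats (Lamb1, Lama4, Lamc1 and 1 of Col4a1) and 0 had them wholly below. Over all varying probe sets 5.41% were separate in the higher and 2.49% in the lower direction. Of 35 varying interstitial probe sets, 0 were separate in either direction.

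**Figure D2:**
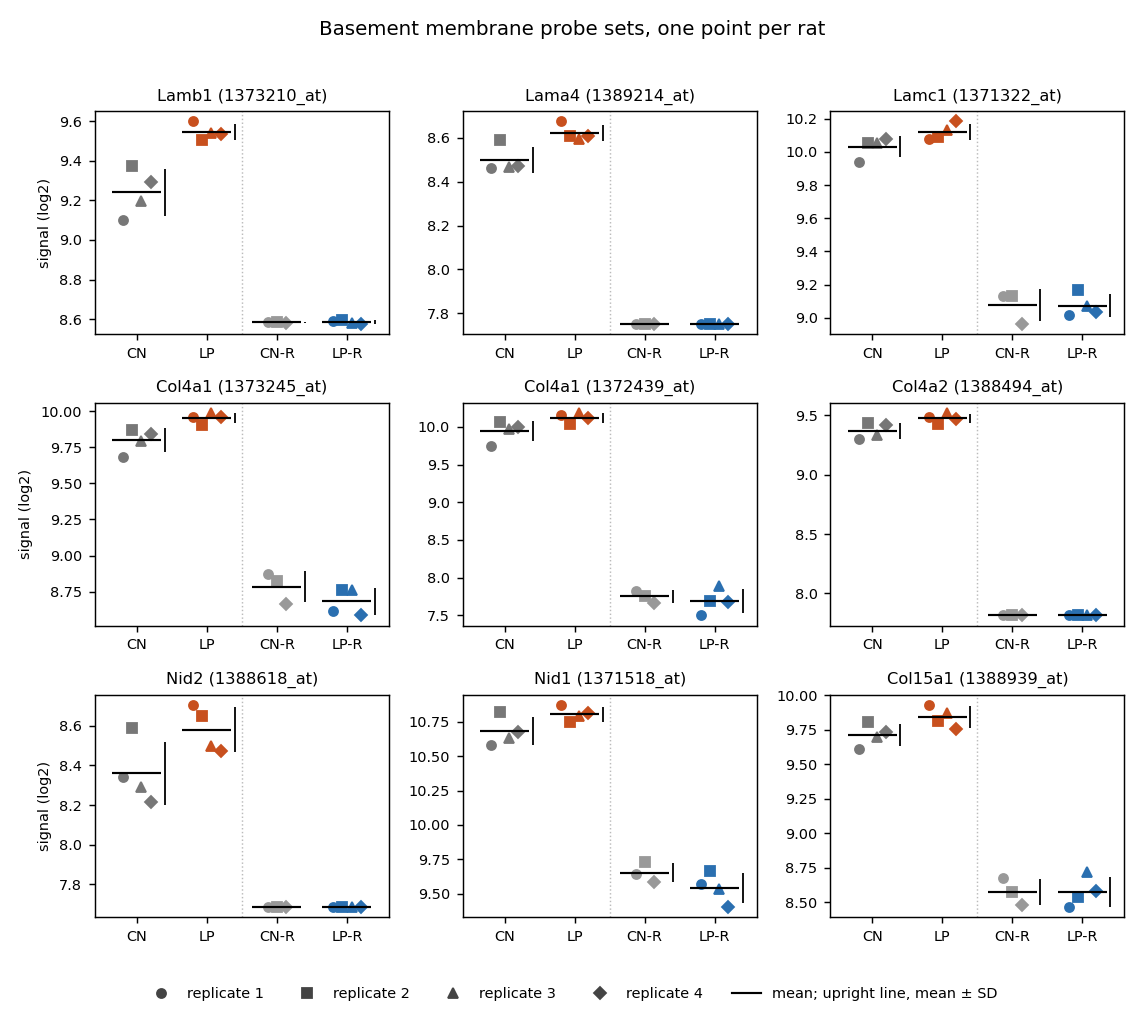
Log2 signal (y axis) of 9 basement membrane probe sets in each rat, by group (x axis), with marker shape for the replicate number, a bar for the mean and an upright line for mean ± SD. The dotted line parts the arrays that were summarized apart, across which levels are not comparable. All 4 LP rats lie above all 4 CN rats for Lamb1, Lama4, Lamc1 and Col4a1 (1373245_at). Lamb1, Lama4, Col4a2 and Nid2 are nearly constant in CN-R and LP-R.

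Endothelial markers were measured beside the basement membrane genes. Of 10 endothelial markers measured, Cldn5, Emcn, Gpihbp1, Kdr and Tie1 were called higher in LP and 0 lower, against 1.67% of all probe sets and 13.1% of the varying ones called higher, while Pecam1 was nearly constant. Kdr, the main receptor for vascular endothelial growth factor, differed by 0.40 (SE 0.08). The mean log2 signal of the 8 varying endothelial markers was 8.28 to 8.41 in CN and 8.40 to 8.60 in LP, so the groups overlapped by 1 rat on either side. Within the groups the order of the rats was shared in part between the 2 lists. CN replicate 1 had the lowest basement membrane mean of CN (9.25) and the highest endothelial mean (8.41). CN replicates 2, 4 and 3 fell in the same order in both lists. LP replicate 1 was the highest LP rat in both (9.49 and 8.60), and LP replicates 2, 3 and 4 had nearly equal basement membrane means (9.44). The part of the endothelial markers in the basement membrane result was not tested.

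Collagen I, the main fibril of tendon and perimysium, was lower in LP by the mean of each of its 4 probe sets, of which 2 were called. Col1a1 (1388116_at) had log2 signals of 12.44, 12.63, 12.22 and 11.95 in CN and of 12.14, 12.28, 12.14 and 11.93 in LP. Col1a2 (1370155_at) had 13.04, 13.21, 12.98 and 12.70 in CN and 12.82, 12.91, 12.77 and 12.77 in LP. In both, CN replicates 1 and 2 were the highest of the 8 rats and CN replicate 4 lay among or below the LP rats.

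The differences were −0.19 (SE 0.16, pfp 0.0307) for Col1a1 and −0.17 (SE 0.11, pfp 0.0459) for Col1a2, with exact permutation p of 0.314 and 0.20. The calls were lost without CN replicate 1, CN replicate 2 or CN replicate 3, and also without LP replicate 1, 3 or 4 for Col1a1 and without any LP rat for Col1a2. Without CN replicate 2 the differences were −0.08 and −0.09, and without CN replicate 4 they were −0.31 and −0.26. The other probe sets, 1370864_at of Col1a1 at −0.09 (SE 0.13) and 1387854_at of Col1a2 at −0.11 (SE 0.11), were not called. Col3a1, the fibril collagen of looser tissue, had signals of 12.58, 12.70, 12.58 and 12.54 in CN and of 12.81, 12.57, 12.67 and 12.53 in LP, with a difference of 0.05 (SE 0.07).

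Postn encodes periostin, a protein of tendon and growing connective tissue that binds collagen. Its log2 signals were 10.59, 10.97, 10.59 and 10.46 in CN and 10.48, 9.64, 10.31 and 10.52 in LP. LP replicate 2 was far below the other rats, and CN replicate 4 lay within the LP range. The difference of −0.42 (SE 0.23, 1.33-fold lower) had a pfp of 0.00255 and an exact permutation p of 0.0857. Without LP replicate 2 the call was lost, at −0.22.

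Fn1 encodes fibronectin, which cells lay down as a scaffold for other matrix. Its signals were 10.39, 10.57, 10.14 and 10.15 in CN and 10.13, 9.88, 10.16 and 10.11 in LP. Again CN replicates 1 and 2 were high, LP replicate 2 was low, and the other 5 rats lay within 10.11 to 10.16. The difference of −0.24 (SE 0.12, pfp 0.0103, exact permutation p = 0.114) was no longer called without LP replicate 2 or without CN replicate 2, at −0.15 in the latter case.

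Lox encodes lysyl oxidase, which crosslinks collagen and elastin. Its probe set 1368172_a_at had 9.21, 9.37, 9.08 and 8.82 in CN and 8.58, 8.93, 8.91 and 8.91 in LP, with CN replicate 4 below 3 of the LP rats. The difference was −0.29 (SE 0.14, pfp 0.00901, exact permutation p = 0.114), and the call was lost without LP replicate 1 (−0.21), CN replicate 1 or CN replicate 2. The other probe set of Lox, 1368171_at, differed by −0.08 (SE 0.17) and was not called.

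The rest of the interstitial matrix showed smaller differences. The 3 varying collagen VI genes had higher means in LP by 0.05 each, and Fbn1, which encodes fibrillin, by 0.06 (SE 0.06). Dcn and Lum, proteoglycans that coat collagen fibrils, differed by 0.04 (SE 0.07) each, and Bgn by −0.10 (SE 0.07). Col5a1, a collagen that seeds fibrils, differed by −0.01 (SE 0.03). Of the fibril-associated collagens, Col14a1 differed by 0.09 (SE 0.09), Col22a1 of the muscle-tendon junction by −0.06 (SE 0.05) and Col12a1 by −0.06 (SE 0.12). None of these was called.

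Sparc, a collagen-binding protein of tissue remodelling, gave opposite values by its 2 probe sets. The probe set 1367562_at had signals of 10.90, 11.33, 10.64 and 10.95 in CN and of 11.14, 11.10, 11.08 and 11.02 in LP, a difference of 0.13 (SE 0.15) that was called higher at a pfp of 0.0492. CN replicate 2 was the highest rat and CN replicate 3 the lowest, with the LP rats between them. This call was lost without CN replicate 3, at 0.02, and without any other array but CN replicate 2 (0.25). It was also lost after quantile normalization. The brighter probe set 1367563_at had 12.54, 12.62, 12.46 and 12.31 in CN and 12.31, 12.47, 12.28 and 12.40 in LP, at −0.12 (SE 0.08, pfp 0.0722), and was not called.

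**Figure D3:**
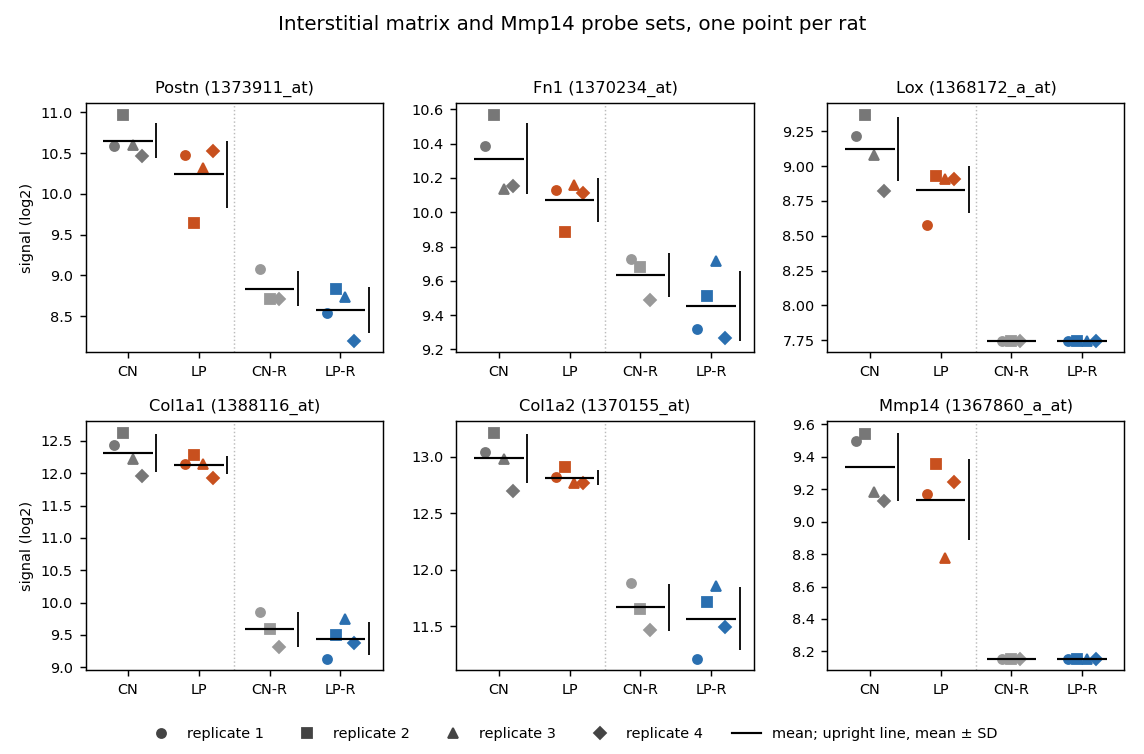
Log2 signal (y axis) of 5 interstitial matrix probe sets and of Mmp14 in each rat, by group (x axis), with marker shape for the replicate number, a bar for the mean and an upright line for mean ± SD. Levels are not comparable across the dotted line. CN replicates 1 and 2 (circle and square) are high in Fn1, Lox, Col1a1, Col1a2 and Mmp14, and CN replicate 4 lies among or below the LP rats in all 6. Lox and Mmp14 are nearly constant in CN-R and LP-R.

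Markers of tendon cells were measured in the same rats. The mean log2 signal of 6 tendon markers (Tnmd, Scx, Fmod, Comp, Thbs4 and Chad) was 9.25, 9.40, 8.96 and 8.78 in CN. In LP it was 8.86, 9.12, 9.11 and 9.02, so CN replicates 1 and 2 were the highest for these genes too. LP replicate 2, the lowest rat in Postn and Fn1, had the highest tendon mean of LP (9.12). Tnmd, a membrane protein of tendon cells, was called lower at −0.25 (SE 0.22), and Comp, a matrix protein of tendon and cartilage, higher at 0.17 (SE 0.11). Of 7 fibroblast markers measured, 0 were called, and the means of their 3 varying genes were 10.20 to 10.28 in CN and 10.23 to 10.33 in LP. The part of tendon tissue in the sampled muscle in these differences was not tested.

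Among the proteases, Mmp14, a membrane-bound collagenase, was called lower and Adamts5, an aggrecan and versican protease, higher. Mmp14 had log2 signals of 9.50, 9.54, 9.18 and 9.13 in CN and of 9.17, 9.35, 8.77 and 9.25 in LP, with overlapping groups. The difference of −0.20 (SE 0.16, pfp 0.0469, exact permutation p = 0.257) fell to −0.08 without LP replicate 3, and the call was lost without CN replicate 1 or 2 or without LP replicate 1, 3 or 4.

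Adamts5 (1394483_at) had 7.58, 7.54, 7.47 and 7.52 in CN and 7.79, 7.74, 7.53 and 7.84 in LP. Of the LP rats 3 lay above all CN rats, and LP replicate 3 lay among them. The difference of 0.20 (SE 0.07, pfp 0.0223, exact permutation p = 0.0857) lost its call without CN replicate 3 or 4 or without LP replicate 1, 2 or 4 (0.16 to 0.26). Its other probe set, 1384724_at, had a difference of 0.03 (SE 0.01) and was not called.

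Mmp2, which degrades denatured collagen and collagen IV, differed by −0.03 (SE 0.06), and the other 15 Mmp genes, Mmp9 included, were nearly constant. None of the Timp genes was called. Timp1 differed by 0.01 (SE 0.06) and Timp2 by −0.04 (SE 0.05). Timp3, the inhibitor that is bound to the matrix, differed by −0.15 (SE 0.13) in 1375138_at. Its other probe sets differed by 0.02 (1368989_at, SE 0.07), −0.06 (1372926_at, SE 0.09) and −0.03 (1389836_a_at, SE 0.09). Timp4 differed by 0.14 (SE 0.16, pfp 0.0577).

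Of 14 matrix-binding integrin subunits 5 varied in LP and none was called. The value of Itga6, which pairs into laminin receptors, was 0.07 (SE 0.03), that of Itgav 0.04 (SE 0.07) and that of Itga1, a collagen receptor subunit, −0.02 (SE 0.14). Itga7 and Itgb1, the main laminin receptor of muscle fibers, were nearly constant in all of their probe sets. Of the 8 integrin genes of leukocytes and platelets, 0 varied.

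Other genes of the matrix system showed few calls. Over all probe sets 1.67% were called higher and 1.6% lower in LP, and among the varying ones 13.1% and 12.5%. Of 21 collagen processing and crosslinking genes measured, Loxl2, a relative of Lox, was called lower in LP at −0.29 (SE 0.10) and 0 higher. Of the 8 that varied, 7 had a higher and 1 a lower mean in LP, with a median difference of 0.07. Of 38 other glycoproteins and proteoglycans, Ltbp4, which holds latent TGF-beta in the matrix, was higher at 0.17 (SE 0.05) and Vtn, the adhesive protein vitronectin, at 0.09 (SE 0.03). Of 27 signals that regulate matrix genes, Ccn1, Igf1 and Smad3 were called higher and Fst, an antagonist of activin and myostatin, lower at −0.13 (SE 0.04). Of 24 genes of dystroglycan, sarcoglycan and laminin-binding partners, Dag1, the laminin receptor dystroglycan, was lower at −0.19 (SE 0.10) and Fermt2, an activator of integrins, at −0.25 (SE 0.10).

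Adipoq of 5 adipocyte markers (3 varying) was called higher, and Tagln of 8 pericyte and smooth muscle markers (3 varying) lower. None of 11 leukocyte, 4 Schwann or 8 muscle fiber markers was called. Only 2 markers varied in each of these lists, and the others give no information on a change. Of all varying probe sets, 13.1% were called higher and 12.5% lower.

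After rebound feeding, fewer matrix genes varied and few were called. In LP-R against CN-R, the calls by rank products were 2 probe sets of Ogn higher, and 1 of Ogn and 1 of Itgb1bp2 lower. Over all 31042 probe sets 0.177% were called higher and 0.432% lower, and among the 3100 varying ones 1.77% and 4.32%. limma called 0.0% of all probe sets, with 1566 at an unadjusted p below 0.05, of which 7 were matrix probe sets. Run on the varying probe sets alone, the method called 4 higher and 2 lower in all, with no matrix probe set among them.

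Most varying matrix genes had lower means in LP-R than in CN-R. For basement membrane it was 6 of 6, with a median difference of −0.04, and for interstitial matrix 13 of 14, with a median of −0.10. Of 1755 varying genes in all, 1179 had a lower and 576 a higher mean, with a median of −0.02. When each array was centred on the median of its varying probe sets, the basement membrane median turned to 0.02 and the interstitial one was −0.05. Both medians depended on single arrays in size, and neither changed sign without any one of them. The basement membrane median was −0.0151 without LP-R replicate 4, −0.0186 without CN-R replicate 1, −0.0177 without CN-R replicate 2, −0.0787 without LP-R replicate 2 and −0.0871 without CN-R replicate 4. The interstitial median was −0.04 without CN-R replicate 1, −0.16 without CN-R replicate 4 and −0.17 without LP-R replicate 3. With CN-R replicate 4 counted as LP-R they were −0.0984 and −0.15.

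Of the basement membrane genes called in LP, Lamb1, Lama4 and Nid2 were nearly constant over all 7 late arrays, and so was Col4a2, so their log2 differences in LP-R carry no information. Col4a1 (1373245_at) had signals of 8.87, 8.82 and 8.66 in CN-R and of 8.62, 8.76, 8.76 and 8.58 in LP-R, with a difference of −0.10 (SE 0.08) and overlapping groups. Nid1 had 9.64, 9.73 and 9.59 in CN-R and 9.57, 9.67, 9.54 and 9.40 in LP-R, with a difference of −0.11 (SE 0.07). Col15a1 differed by −0.00087 (SE 0.08), Lamc1 by −0.0050 (SE 0.07) and Lamb2 by −0.01 (SE 0.07). Lama2 varied only in this set, at −0.07 (SE 0.07).

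The change in LP and that in LP-R were set against each other by an exact test over all splits of the arrays within each set. Of 74 matrix probe sets that varied in either set, 7 (9.46%) had an unadjusted exact permutation p below 0.05, against 9.22% of all 5001 such probe sets. Over all 183 matrix probe sets it was 12 (6.56%), against 6.0% of the whole array. Among the varying ones the smallest was 0.0135, for Col4a1 (1373245_at) with a difference between the changes of 0.26, and the smallest p adjusted over all probe sets was 0.796 for any matrix probe set. A difference between the 2 ages was therefore not shown for any matrix gene, but this test could hardly show one. Its smallest unadjusted p over the whole array was 0.000408, which stays high after adjustment over 31042 probe sets unless many of them reach it.

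Interstitial genes in LP-R had wide spreads. Postn had log2 signals of 9.08, 8.71 and 8.71 in CN-R and of 8.54, 8.84, 8.74 and 8.20 in LP-R, a difference of −0.26 (SE 0.19, pfp 0.102). Fn1 had 9.73, 9.68 and 9.49 in CN-R and 9.32, 9.51, 9.72 and 9.27 in LP-R, a difference of −0.18 (SE 0.13, pfp 0.115). The groups overlapped in both genes, and neither was called. Sparc (1367563_at) differed by −0.33 (SE 0.30), where LP-R replicate 4 was at 10.30 and the other 6 rats at 11.23 to 11.65.

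Collagen I was not called in any of its probe sets in LP-R, with Col1a1 (1370864_at) at −0.11 (SE 0.20) and Col1a2 (1370155_at) at −0.10 (SE 0.18), and Col3a1 was at −0.06 (SE 0.07). Both collagen I values changed sign without CN-R replicate 1, to 0.03 and 0.0090, and that of Col1a2 also without LP-R replicate 1 (0.02). Without CN-R replicate 4 they were −0.26 and −0.20. Dcn differed by −0.14 (SE 0.07). Col14a1, a collagen on fibril surfaces, had signals of 8.32, 8.28 and 8.23 in CN-R and of 8.11, 8.21, 8.22 and 8.09 in LP-R. The LP-R rats were all below the CN-R rats, by as little as 0.01, and the difference of −0.12 (SE 0.04, pfp 0.0785) was not called. Fbn1, Lum, Lox, Col5a1, Mmp2, Mmp9, Mmp14, Timp1, Itga7 and Hspg2 were nearly constant.

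Itgb1bp2, also named melusin, is a muscle protein that binds the integrin beta 1 tail. Its log2 signals were 9.17, 9.35 and 9.18 in CN-R and 9.13, 9.07, 9.05 and 9.0 in LP-R, with all LP-R rats below all CN-R rats. The difference of −0.17 (SE 0.06, 1.13-fold lower) had a pfp of 0.045 and an exact permutation p of 0.0286, but it was called only with all 7 arrays present (−0.20 to −0.11 with 1 left out). It and Col14a1 were 2 of 42 varying matrix probe sets with separate groups in the lower direction and 0 were separate in the higher, against 3.32% and 0.516% of all varying probe sets. In LP the value of Itgb1bp2 was 0.03 (SE 0.04).

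Ogn encodes osteoglycin, also named mimecan, a small leucine-rich proteoglycan of the interstitial matrix. It was the only matrix gene called in both comparisons, and its 4 probe sets did not move together. In CN and LP, 1385248_a_at had log2 signals of 9.89, 10.02, 9.25 and 9.12 in CN and of 9.65, 8.73, 9.65 and 8.66 in LP. The rats of both groups fell into a high and a low pair, and the difference of −0.40 (SE 0.36, pfp 0.0025, exact permutation p = 0.343) was called lower. The call was kept without each array, at −0.56 to −0.23.

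The probe set 1376749_at went the other way. Its signals were 9.17, 9.30, 9.47 and 9.51 in CN and 9.23, 9.90, 9.17 and 9.95 in LP, so LP replicates 2 and 4, the lowest rats by 1385248_a_at, were the highest here. Its difference of 0.20 (SE 0.23, pfp 0.0535) was not called. The probe sets 1383263_at and 1390450_a_at differed by 0.01 (SE 0.28) and −0.10 (SE 0.08) and were not called.

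In LP-R, 1376749_at had signals of 8.41, 9.07 and 8.32 in CN-R and of 8.92, 8.45, 9.11 and 9.07 in LP-R, and was called higher at 0.29 (SE 0.28, pfp 0.0315). The probe set 1383263_at was called higher at 0.24 (SE 0.23, pfp 0.0299). In contrast 1385248_a_at had 9.03, 8.91 and 9.06 in CN-R and 8.59, 9.24, 8.11 and 7.96 in LP-R and was called lower at −0.52 (SE 0.29, pfp 0.0106). CN-R replicate 2 and LP-R replicate 2 each lay with the other group in 1376749_at. All 3 calls were lost without LP-R replicate 3, LP-R replicate 4, CN-R replicate 1 or CN-R replicate 4, and the latter 2 probe sets also lost theirs without CN-R replicate 2. Over the arrays left out, the differences ranged from 0.15 to 0.52, from 0.11 to 0.41 and from −0.78 to −0.35.

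Across the 8 early arrays, 1376749_at and 1385248_a_at had a Pearson's r of −0.93 (exact permutation p = 0.00337, 0.0101 adjusted over 12 correlations) and a Spearman's rho of −0.79 (exact permutation p = 0.0279). Without the 2 rats farthest from the median of the first, r was −0.80. Across the 7 late arrays r was −0.79 (exact permutation p = 0.0294, adjusted 0.0482) and rho −0.71 (exact permutation p = 0.0881), with r of −0.75 without the 2 farthest rats. In contrast 1376749_at moved with 1383263_at (r = 0.87 and 0.94), and 1385248_a_at with 1390450_a_at (r = 0.89 and 0.97), in the early and late arrays respectively. The direction of Ogn in LP or LP-R thus differed by probe set, and which transcripts each probe set reads was not tested. No direction is concluded for the gene. In the gene counts and medians above, Ogn stood as higher in LP and LP-R, through 1376749_at. Among the calls in LP it stood as lower, through 1385248_a_at.

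**Figure D4:**
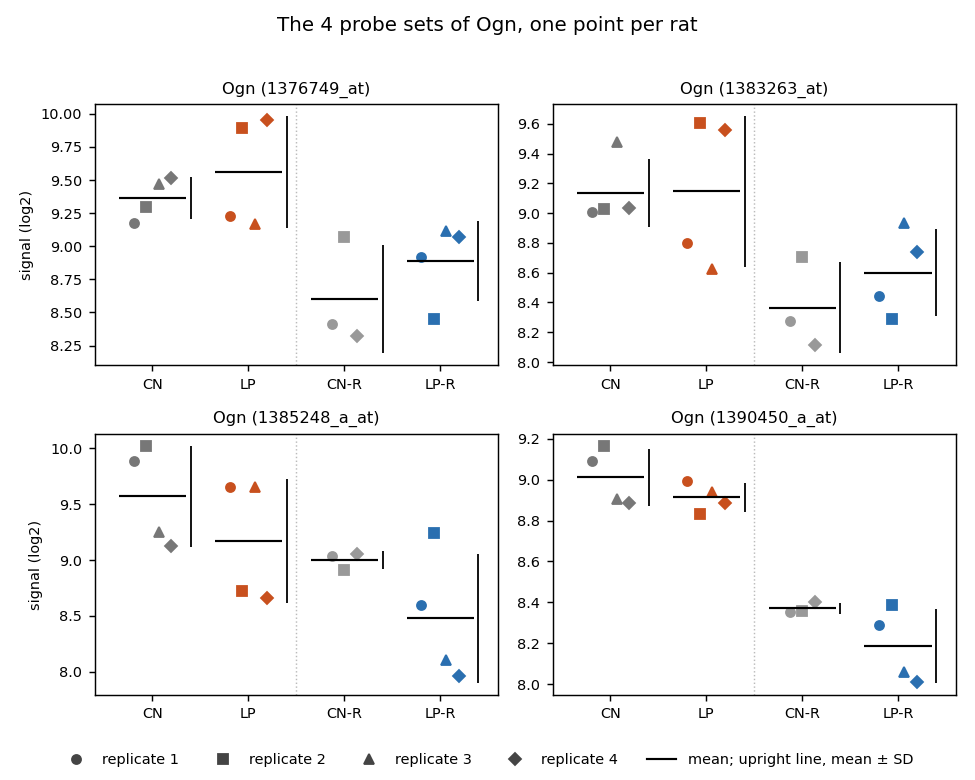
Log2 signal (y axis) of the 4 probe sets of Ogn in each rat, by group (x axis), with marker shape for the replicate number, a bar for the mean and an upright line for mean ± SD. Levels are not comparable across the dotted line. LP replicates 2 and 4 (square and diamond) are high in the upper 2 panels and low in the lower 2, and LP-R replicates 3 and 4 likewise.

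Of the other lists in LP-R, Ccn1 was called higher, of 27 signals that regulate matrix genes (10 varying). Ecm2, a matrix protein, was called lower at −0.23 (SE 0.08), of 38 other glycoproteins and proteoglycans (10 varying). Of 24 genes of dystroglycan, sarcoglycan and laminin-binding partners (8 varying), 2 were called lower. They were Sdc4, a cell surface proteoglycan, at −0.23 (SE 0.21) and Sgcb, a sarcoglycan of the fiber membrane, at −0.25 (SE 0.12). None of 10 endothelial (4 varying), 6 tendon (6 varying), 7 fibroblast (2 varying) or 8 pericyte and smooth muscle markers (3 varying) was called. The same held for 4 Schwann markers (2 varying), 5 adipocyte markers (1 varying) and 21 collagen processing genes (2 varying). Genes that did not vary give no information on a change. Lyz2 of 11 leukocyte markers (2 varying) was higher and Myh7 of 8 muscle fiber markers (3 varying) lower. Of all varying probe sets, 1.77% were called higher and 4.32% lower. The mean log2 signal of the 6 tendon markers was 8.74 to 8.95 in CN-R and 8.58 to 8.85 in LP-R, with overlapping groups.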

How the data were processed

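The authors deposited 1 log2 signal for each probe set and array, made with FARMS in R according to the study's methods. The 2 ages were summarized in separate runs, and no further normalization was applied. The number of arrays limits the precision. The labels do not say how the rats were housed together. Control probe sets (57) were left out. Of the 31042 others, 20826 carry 1 gene symbol, 436 several and 9780 none, by the platform annotation, and the symbols of all 183 matrix probe sets matched RefSeq by gene ID. No column of the value table was left unused.

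Rank products, the method named by the study, were written in Python 3.11.15 (numpy 2.4.6, scipy 1.17.1, pandas 2.3.3). They ran over all pairs of arrays of a comparison, with 100 permutations within each array (seed 1), permuted values pooled over both directions, and calls at a pfp up to 0.05. This null assumes 1 spread for every probe set. limma 3.58.1 (R 4.3.3) ran on each comparison alone, with Benjamini-Hochberg adjustment. Both were also run on simulated data, but the outcome is not given here and lends the calls no weight. Exact permutation tests of single probe sets used all splits of the arrays, two-sided, and their p are not adjusted unless stated. A list was described by its counts and median, with no test of its own.

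Genes were named when called, when among the 3 varying genes of smallest limma p in their role, or when on a list of core matrix genes. The members and lists were chosen with earlier results of these data known. Alternatives were limma, same-numbered pairs, other normalizations, filters, other ways to join probe sets, CN-R replicate 4 placed in LP-R, and each array left out in turn. Permuted values taken by direction were added after seeing the data. The methylation arrays were not used here. The expression arrays hold no CN-R replicate 3.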

Additional observations from a re-analysis of the deposited data

Results flagged for a closer look

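In 7 of 143 groups of 4 arrays, 1 rat lay apart from the other 3 by Dixon's test, where chance gives about 1 in 20. The share of the group's range between that rat and its nearest neighbour was 0.931 for Lox (1368172_a_at) in LP replicate 1, 0.833 for Fbn1 in LP replicate 2, 0.831 for Fn1 in LP replicate 2, 0.935 for Itgbl1 in LP replicate 2, 0.839 for Adamtsl4 in LP replicate 1, 0.8385 for Lamc1 in CN replicate 1 and 0.931 for Lama4 in CN replicate 2. Of these 7 values, 3 came from LP replicate 2, which was low in Fn1 and Fbn1 and high in Itgbl1.

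For 7 of the 63 named probe sets the change in LP differed from that in LP-R at an unadjusted exact permutation p below 0.05. These 63 were picked in part by their calls and limma p in LP or LP-R, so the test is not independent of the choice. Over all 183 matrix probe sets 6.56% were below 0.05, against 6.0% of the whole array, and the smallest p adjusted over all probe sets was 0.796. The change in LP minus that in LP-R, on the log2 scale, was 0.23 for Nid1 (exact permutation p = 0.0229), 0.30 for Lamb1 (p = 0.0192 by the same exact test), 0.26 for Col4a1 (1373245_at, exact permutation p = 0.0135), 0.10 for Col4a2 (exact permutation p = 0.0351), 0.12 for Lama4 (exact permutation p = 0.0204), 0.21 for Itgb1bp2 (exact permutation p = 0.0155) and 0.13 for Itgb1bp1 (exact permutation p = 0.0433). Of these, 5 were basement membrane genes with a higher mean in LP. Lamb1, Col4a2 and Lama4 were nearly constant in the late arrays, so there the difference is that of the early arrays alone.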

How the results depend on the processing

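The number of matrix probe sets called depended on the test and on single arrays. For LP, 9 were called higher and 7 lower. limma called 0 and 0, limma with the replicate block 0 and 0, and rank products on varying probe sets alone 0 and 0. With dim probe sets left out 4 and 4 were called. Leaving out 1 array gave 1 to 7 calls higher and 2 to 13 lower, and over all probe sets it gave 170 to 318 higher and 198 to 446 lower. For LP-R, 2 were called in each direction. limma, limma with the replicate block, varying probe sets alone and CN-R replicate 4 counted as LP-R gave 0 and 0. With dim probe sets left out 0 and 1 were called, and with permuted values taken by direction 2 and 1. Leaving out 1 array gave 0 to 2 higher and 0 to 4 lower.

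The replicate numbers do not pair the rats by any label, and deviations of same-numbered rats correlated at −0.03 to 0.55 in CN and LP and at 0.04 to 0.22 in CN-R and LP-R. Rank products over same-numbered pairs (the replicate block) called 13 higher and 9 lower in LP, and 1 higher and 2 lower in LP-R.

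The basement membrane median in LP kept its sign throughout, at 0.10 to 0.16 without 1 array, and was 0.0011 when nearly constant genes were included. The interstitial median in LP was −0.07 to 0.04 without 1 array, with the positive value without CN replicate 2. In LP-R the basement membrane median was −0.04, 0.02 after median centring and −0.0871 to −0.0151 without 1 array, and the interstitial one −0.17 to −0.04. Among the named probe sets, 1152 of 1408 values under an alternative kept their direction and side of the threshold, 172 lost a call, 19 gained one, and 65 that were not called changed sign. No called value changed sign. The few arrays and the constants that FARMS gives to most probe sets limit what could be seen, above all in CN-R and LP-R.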
